A study of Mus musculus with 2 samples.

Results

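The histone cluster genes of the mouse are the genes of the H1, H2A, H2B, H3 and H4 families that lie close together in the Hist1, Hist2, Hist3 and Hist4 loci. Every gene column found in both count tables whose name starts with Hist1h, Hist2h, Hist3h or Hist4h was taken as a member. That gave 44 of the 36245 shared gene columns, of which 5 code for H1, 13 for H2A, 11 for H2B, 6 for H3 and 9 for H4. In the GRCm38 annotation 33 of them lie on chromosome 13, 7 on chromosome 3, 3 on chromosome 11 and 1 on chromosome 6, and 2 of the 44 are processed pseudogenes.

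Testicular tissue of mice aged 24 months (aged) and of mice aged 2 months (young) was measured by single-cell RNA sequencing on the BD Rhapsody system, which sorts cells into microwells and captures polyadenylated RNA on barcoded beads. There was 1 library per age, and the labels name no treatment, strain or genotype and do not give the number of mice. The labels call the cells stroma cells, but most clusters carry markers of germ cells. The title of the study sets the question of how gene expression in these cells differs between the ages.

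Core histones form the protein spool on which DNA is wound, and linker histone H1 binds the DNA between spools. Most histone cluster genes are read during S phase into mRNAs that end in a short stem-loop, bound by the protein Slbp, in place of a poly(A) tail, so poly(A) capture sees only the part of their transcripts that is polyadenylated. Some cluster members are also known to give polyadenylated transcripts in cells that no longer divide. In the testis, meiotic cells use testis-specific histones such as H1t, and histones are later replaced by transition proteins and protamines.

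As deposited, 6823 aged cells held 66390904 counts and 2771 young cells held 53413783 counts. Filtering left 5691 aged and 2732 young cells, whose median totals were 11381 and 15649.5 counts. The libraries shared 35 cell indices, and called doublets, 2.08% of aged and 1.37% of young cells that passed the other filters, were removed. The 44 members were left out of the genes used for clustering. Classes were named from marker genes and are spermatocyte-like (2290 aged and 659 young cells), round spermatid-like (669 and 344), elongating spermatid-like (499 and 207), Leydig-like (576 and 1087), macrophage-like (130 and 173), stromal fibroblast-like (130 and 17) and Sertoli-like (52 and 5) cells, with 1345 aged and 240 young cells unnamed. Median depth was lower in aged cells of the 4 largest classes, at 17041.5 counts in aged and 30668 in young spermatocyte-like, 15845 and 28871.5 in round spermatid-like, 4892 and 17978 in elongating spermatid-like, and 4752 and 6938 in Leydig-like cells. Levels are in CPM: the counts of a gene were added up over all cells of 1 class and 1 library and divided by their total in units of 1000000 counts. Ratios are aged over young. As each age is a single library, differences between them have no replicate check and could not be tested. All intervals are exact 95% intervals of counting error alone, from the conditional binomial for a ratio, the Poisson for a level and Clopper-Pearson for a share of cells.

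The 3′ ends of the members that were measured most are shown first, because poly(A) capture reads them. Of the 12 members with 100 or more counts over both libraries, 8 hold a sequence that fits the histone stem-loop in the longest annotated transcript (GENCODE M21), printed here as DNA with the stem-loop in capitals and 5 bases on either side.
Hist2h2aa2: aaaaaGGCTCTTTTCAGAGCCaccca
Hist1h1c: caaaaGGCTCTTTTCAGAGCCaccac
Hist3h2a: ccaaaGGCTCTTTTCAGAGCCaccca
Hist1h4h: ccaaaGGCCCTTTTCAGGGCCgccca
Hist1h3a: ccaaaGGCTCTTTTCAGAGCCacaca
Hist1h1t: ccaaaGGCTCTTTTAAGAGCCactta
Hist2h3c2: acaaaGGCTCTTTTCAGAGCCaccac
Hist1h4i: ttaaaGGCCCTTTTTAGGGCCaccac
The annotated transcript runs on past the stem-loop by 1643 bases in Hist3h2a, 840 in Hist1h1c, 377 in Hist2h3c2, 330 in Hist1h4i and 185 in Hist1h1t. It ends 46 bases after it in Hist1h4h, 37 in Hist1h3a and 35 in Hist2h2aa2. The longest transcripts of Hist1h2bp, Hist2h2be, Hist1h2bc and Hist1h4a hold no match to the motif. Those of Hist1h2bp and Hist1h2bc have 2 exons, and the shorter of 2 Hist1h2bp transcripts does hold the stem-loop. The bead cannot show which of these ends a counted molecule had.

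For 42 members, without the 2 pseudogenes Hist1h2al (33 counts) and Hist3h2bb-ps (17 counts), the 3′ ends could be compared. A long annotated 3′ UTR did not set the most counted members apart. Among the 12 with 100 or more counts, 7 had a 3′ UTR of 200 or more bases and the median length was 303, from 90 in Hist1h3a to 2192 in Hist2h2be. Among the 16 of these members with 10 to 99 counts, 10 had one and the median was 651 bases. Among the 14 members with fewer than 10 counts, 5 had one and the median was 99 bases. Hist1h1d has the longest of all, at 4931 bases, and gave 26 counts. Hist1h2ba and a few others are annotated without a 3′ UTR, so no stem-loop could be found in them. An AATAAA polyadenylation hexamer stood in the 3′ UTR of 7 of the 12 most counted members, 6 of the 16 with 10 to 99 counts and 2 of the 14 with fewer than 10.

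**Figure D1:**
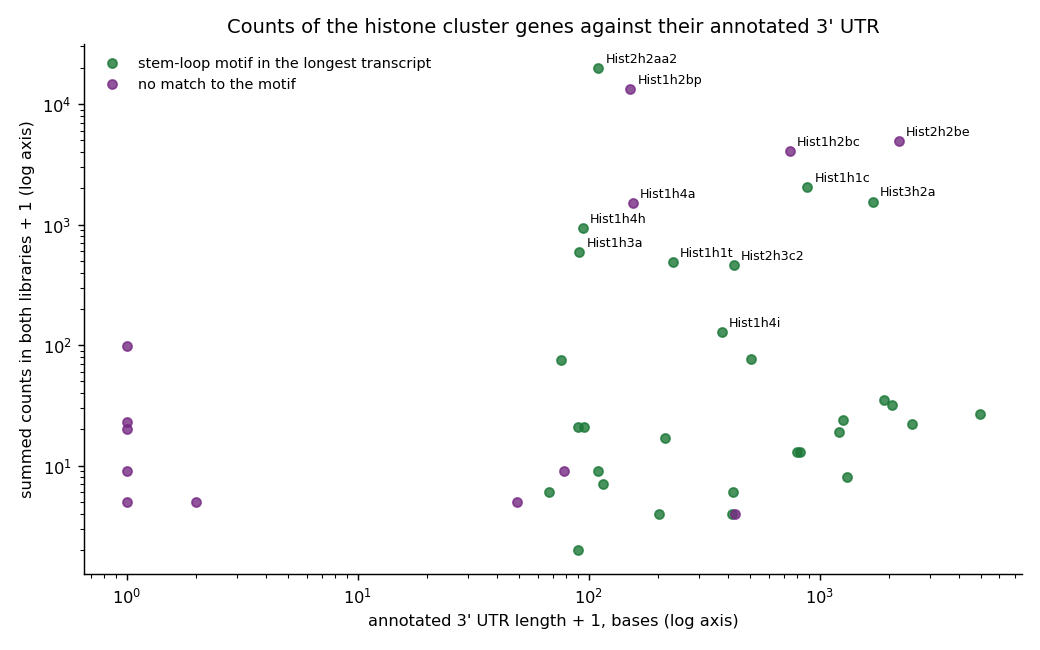
Summed counts plus 1 of 42 members over both libraries (vertical axis, log scale) against the length plus 1, in bases, of the 3′ UTR in its longest annotated transcript (horizontal axis, log scale), 1 point per member and coloured by whether the transcript holds a stem-loop match. The named members, with 100 or more counts, are spread from a 3′ UTR of 90 bases to 2192 bases, and members with 3′ UTRs as long have fewer than 100 counts.

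Promoters are shown for 4 members that the comparisons of cell types and ages turn on, as RefSeq gives them for GRCm38.p6, from 250 bases before to 50 after the gene start. Capitals mark every match, on either strand, to the octamer ATTTGCAT, the TATA motif TATAAA or the CCAAT motif. The windows are chr3:96240325-96240624 (minus strand) for Hist2h2aa2, chr13:21787238-21787537 (plus) for Hist1h2bp, chr13:23761200-23761499 (minus) for Hist1h4a and chr13:23530794-23531093 (plus) for Hist1h4h. The gene start is that of RefSeq, and the Hist2h2aa2 window lies wholly before the gene as GENCODE M21 places it (chr3:96239749-96240276). Motifs between that window and the GENCODE start were therefore not scored. The Hist2h2aa1 window holds the last letters of the Hist2h2aa2 one and runs on into a TATAAA.
Hist2h2aa2: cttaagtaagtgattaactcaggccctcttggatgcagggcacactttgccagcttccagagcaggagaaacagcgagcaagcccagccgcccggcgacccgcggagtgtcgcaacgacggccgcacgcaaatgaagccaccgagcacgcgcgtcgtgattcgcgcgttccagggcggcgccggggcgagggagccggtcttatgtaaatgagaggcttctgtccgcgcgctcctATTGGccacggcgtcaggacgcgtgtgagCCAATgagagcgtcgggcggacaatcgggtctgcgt
Hist1h2bp: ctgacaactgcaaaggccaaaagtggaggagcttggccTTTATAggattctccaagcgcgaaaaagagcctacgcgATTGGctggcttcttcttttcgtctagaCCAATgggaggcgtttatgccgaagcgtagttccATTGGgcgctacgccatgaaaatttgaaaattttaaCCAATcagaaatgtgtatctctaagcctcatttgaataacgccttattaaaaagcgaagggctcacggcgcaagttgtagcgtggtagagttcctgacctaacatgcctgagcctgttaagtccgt
Hist1h4a: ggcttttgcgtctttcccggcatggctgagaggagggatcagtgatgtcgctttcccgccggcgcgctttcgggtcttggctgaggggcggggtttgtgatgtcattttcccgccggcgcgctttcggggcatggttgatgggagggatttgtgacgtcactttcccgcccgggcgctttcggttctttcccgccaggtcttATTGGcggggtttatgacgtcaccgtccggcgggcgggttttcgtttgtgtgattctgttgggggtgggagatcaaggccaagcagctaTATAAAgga
Hist1h4h: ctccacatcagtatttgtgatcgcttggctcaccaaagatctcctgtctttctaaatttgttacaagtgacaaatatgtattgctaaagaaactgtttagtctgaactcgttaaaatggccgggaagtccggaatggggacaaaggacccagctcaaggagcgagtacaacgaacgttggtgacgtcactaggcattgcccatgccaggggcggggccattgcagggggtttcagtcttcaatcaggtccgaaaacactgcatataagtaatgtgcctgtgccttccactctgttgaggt
The Hist1h4h window holds none of the 3 motifs, which says only that these letters are not in it. Promoters were matched for 37 of the 44 members, and Hist2h2be, Hist1h2bc and Hist1h3a are among those without one. The octamer, known from H2B promoters, was present in 9 of the 37, which were 5 of 8 H2B and 4 of 12 H2A members, against 1.735% of all 32851 promoters. TATAAA was present in 21 of the 37, against 13.62% of all promoters, and CCAAT in 32 of the 37, against 37.41%. Each motif was scored as present or absent, so a base in 2 matches counts for both, and a match is not a binding site.

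Nearly every member gave a count and few gave many. Over the analysed cells, 44 members had at least 1 count in the aged and 43 in the young library, Hist1h2bm being the one at 1 count in aged and 0 in young cells. At least 10 counts were reached by 23 members in each library, 19 of them the same. Members summed to 25409 counts or 397 CPM in aged and 25028 counts or 477 CPM in young cells. Of all these counts, 39.4% came from 1 member, 83.5% from 4 and 98.7% from 12. The genes differ in capture and in copies that share their reads, so shares of counts between members are not shares of molecules.

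H2A and H2B gave nearly all of it. H2A members had 11083 counts in aged and 10555 in young cells, which is 43.6% and 42.2% of the member counts. H2B members had 11160 and 11309 counts, or 43.9% and 45.2%. H4 members had 1523 and 1171 counts, H1 members 1123 and 1441, and H3 members 520 and 552. Members with at least 10 counts were, in aged and in young cells, 7 and 7 of 13 for H2A, 7 and 5 of 11 for H2B, 4 and 5 of 9 for H4, 3 and 4 of 5 for H1, and 2 and 2 of 6 for H3.

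**Figure D2:**
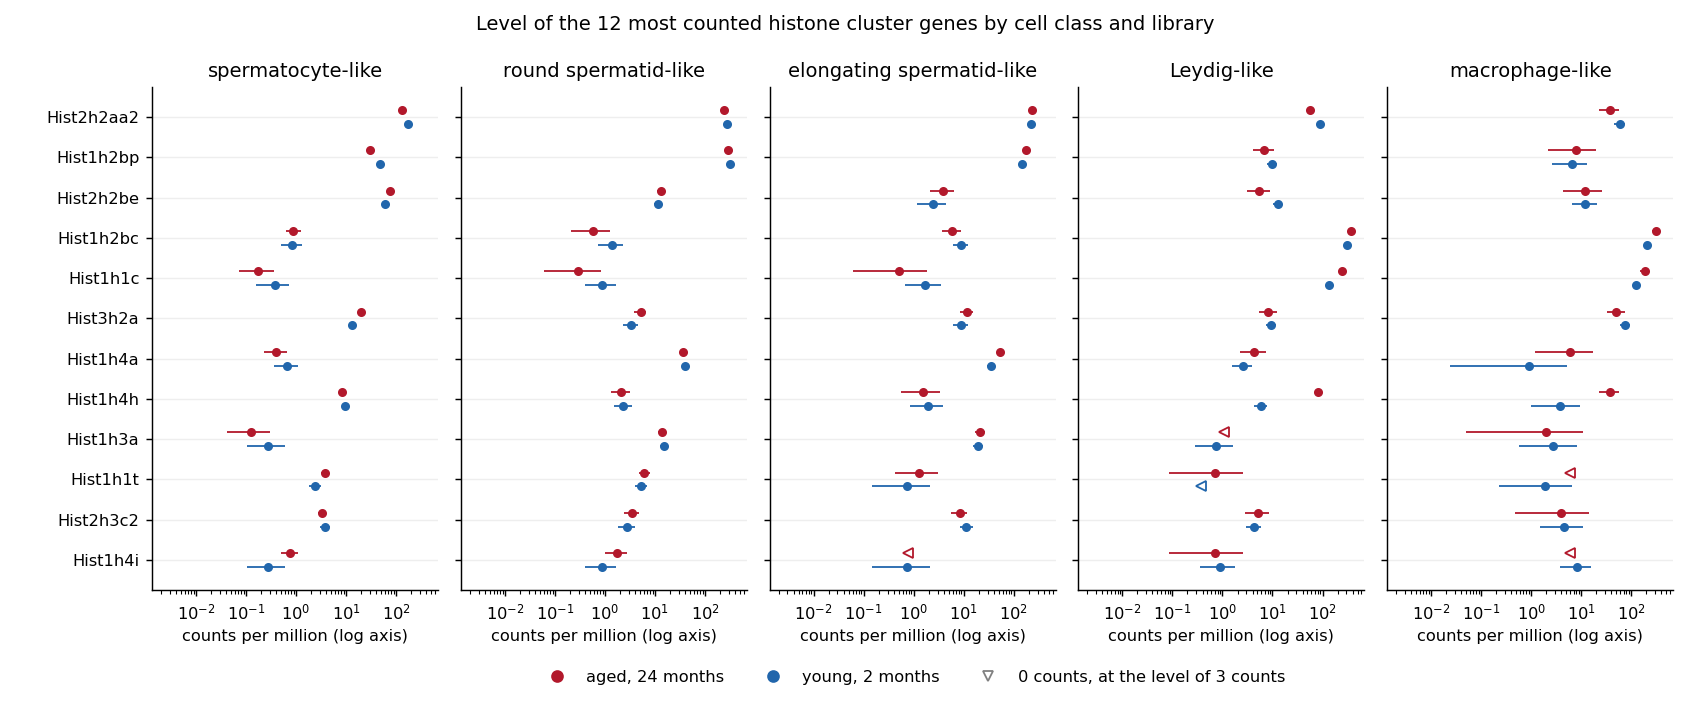
Level in CPM (horizontal axes, log scale) of the 12 most counted members in 5 classes, aged points above young ones, with exact Poisson 95% intervals and open triangles for 0 counts, drawn at the level of 3 counts. Hist1h2bc and Hist1h1c are high in Leydig-like and macrophage-like cells, Hist2h2be is highest in spermatocyte-like cells, and Hist1h2bp, Hist1h4a and Hist1h3a are highest in the spermatid-like classes.

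The types and the members that were counted most differed between germ cells and somatic cells. H1 gave 30.8% of the member counts in aged and 23.1% in young Leydig-like cells, and 1.41% in aged and 0.934% in young spermatocyte-like cells. H2A gave 8.42% in aged and 17.2% in young Leydig-like cells, and 54.7% in aged and 59.1% in young spermatocyte-like cells. In spermatocyte-like cells 4 members reached 10 CPM in both libraries, the H2A genes Hist2h2aa2 and Hist3h2a and the H2B genes Hist2h2be and Hist1h2bp, and these gave 92.2% of the member counts in aged and 93.2% in young cells. In round spermatid-like cells 5 members reached it in both, Hist1h2bp, Hist2h2aa2, Hist1h4a, Hist1h3a and Hist2h2be. In Leydig-like cells Hist1h2bc, Hist1h1c and Hist2h2aa2 reached it in both libraries, Hist1h4h in aged and Hist2h2be in young cells. The summed level of all members was 280 CPM in aged and 315 CPM in young spermatocyte-like cells, 616 and 680 CPM in round spermatid-like, 525 and 464 CPM in elongating spermatid-like, and 802 and 580 CPM in Leydig-like cells.

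Hist2h2aa2 (chr3:96239749-96240276, GRCm38, minus strand), an H2A gene of the Hist2 locus, was the most counted member, with 9954 counts in aged and 9896 in young cells. All of its transcript's 50-base windows also occur in other annotated genes, among them Hist2h2aa1 and Gm20634, so its level may include theirs. The antisense gene Gm20632 overlaps it and had 5.04 CPM in aged and 4.39 CPM in young spermatocyte-like cells. The strand used in counting is not given in the sources used here, so reads of overlapping genes cannot be told apart. Hist2h2aa2 stood at 132 CPM in aged and 172 CPM in young spermatocyte-like cells, 235 and 276 CPM in round spermatid-like, 237 and 223 CPM in elongating spermatid-like, and 56.3 and 88.0 CPM in Leydig-like cells. In the macrophage-like class it stood at 36.9 and 58.1 CPM.

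Germ cell clusters were ordered by falling early meiotic genes, with the 2 elongating spermatid-like clusters 12 and 8 placed last, by their summed protamine and transition protein genes, at 30063 and 122756 CPM in aged cells and 33614 and 124831 CPM in young cells. In aged cells the early meiotic genes alone would put cluster 8 before 12, at 92.6 and 85.5 CPM. Along this order Hist2h2aa2 was higher in later clusters, apart from a dip at clusters 0 and 11, up to the first of the elongating spermatid-like ones and low in the last. In spermatocyte-like clusters 6, 2, 7 and 0 it stood at 61.2, 140, 174 and 132 CPM in aged cells and at 79.9, 168, 211 and 162 CPM in young cells. In cluster 11, the unnamed cluster 5, and clusters 9 and 13, which are round spermatid-like apart from 5, it stood at 149, 187, 263 and 303 CPM in aged and 181, 226, 302 and 380 CPM in young cells. In the elongating spermatid-like clusters 12 and 8 it stood at 344 and 45.2 CPM in aged and 383 and 73.2 CPM in young cells. Cluster 5 was left unnamed although its round spermatid markers scored high, because the spermatocyte marker Spag6 stood among its leading genes.

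The aged level of Hist2h2aa2 lay under the young one in each of the 9 germ cell clusters with at least 50 cells per library, with ratios from 0.618 in cluster 8 to 0.897 in cluster 12 and every interval under 1. This count was made after the values had been seen. All 50-base windows of Hist2h2aa2 are shared with other genes, and only the aged table names its pipeline in a header. Whether shared reads were handled alike in both tables is not known. Of the 3406 genes with 50 or more counts in each of these clusters and libraries, 7.05% were lower in aged cells in all 9, and 0.470% also had every interval under 1, while 4.99% were higher in all 9, and 0.264% also had every interval over 1. In Leydig-like cells its ratio was 0.640 (0.534–0.762), but it was 82.2 CPM in aged and 89.4 CPM in young cells of Leydig-like cluster 1, and 54.9 and 55.2 CPM in cluster 3. The ratio was 0.920 (0.473–1.62) in cluster 1, from 12 aged counts, and 0.994 (0.600–1.75) in cluster 3, from 17 young counts. Both intervals include the class ratio. Cluster 1 held 38 aged and 1038 young cells and cluster 3 held 538 aged and 49 young cells. Cluster and age therefore cannot be told apart in the class ratio. Those counts of 38 and 49 are under the minimum of 50 cells used elsewhere, and a cluster mostly of 1 library may be that library.

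Hist2h3c2 (chr3:96238108-96239127, minus strand), an H3 gene 621 bases from Hist2h2aa2 on the same strand, was much lower. It stood at 3.22 CPM in aged and 3.78 CPM in young spermatocyte-like cells, 3.45 and 2.71 CPM in round spermatid-like, 8.24 and 11.3 CPM in elongating spermatid-like, and 5.06 and 4.29 CPM in Leydig-like cells. None of these pairs of ages differed beyond counting error. Between classes, its elongating level was 2.39 times the round spermatid level in the aged library (1.43–3.95) and 4.15 times in the young library (2.55–6.89).

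Hist3h2a (chr11:58954685-58956830, plus strand), the H2A gene of the Hist3 locus, was highest in macrophage-like cells, at 50.5 CPM in aged and 75.7 CPM in young cells. It stood at 19.8 CPM in aged and 12.97 CPM in young spermatocyte-like cells, and at 8.31 and 9.35 CPM in Leydig-like cells. In spermatocyte-like clusters 6, 2, 7 and 0 it stood at 34.2, 22.5, 20.0 and 8.31 CPM in aged and at 29.5, 18.9, 20.4 and 7.90 CPM in young cells, lowest in the last of the 4. The class ratio of 1.53 (1.33–1.76) is larger than the ratio in any of these clusters, which were 1.16, 1.19, 0.978 and 1.05. Cluster 6 held 508 aged and 24 young cells. The gene lies on the same strand as Trim17, a ubiquitin ligase gene that overlaps it, but the levels of these 2 differ by class. Trim17 stood at 201 CPM in aged and 196 CPM in young round spermatid-like cells, where Hist3h2a had 5.18 and 3.30 CPM, and at 5.83 and 5.54 CPM in macrophage-like cells.

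Hist2h2be (chr3:96221119-96223738, plus strand), an H2B gene with none of its 50-base windows shared, had its highest level in spermatocyte-like cells among the 4 classes compared, where it came after Hist2h2aa2. It stood at 75.3 CPM in aged and 60.1 CPM in young spermatocyte-like cells (ratio 1.25, 1.17–1.34), at 13.2 and 11.4 CPM in round spermatid-like cells and at 3.86 and 2.40 CPM in elongating spermatid-like cells. Within the aged library the round spermatid level was 0.176 times the spermatocyte level, and within the young library 0.1902 times. Along clusters 6, 2, 7, 0, 11, 5, 9, 13, 12 and 8 it stood at 69.2, 99.3, 58.4, 63.4, 27.0, 17.1, 7.87, 3.95, 4.02 and 3.59 CPM in aged cells. In young cells the same clusters gave 76.5, 84.8, 50.6, 56.6, 25.4, 9.58, 4.53, 2.86, 1.49 and 3.24 CPM. Both libraries peak in cluster 2.

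Hist1h2bp (chr13:21787461-21789213, plus strand), an H2B gene of the Hist1 locus with 45.3% of its windows shared with other genes, was the most counted member of round spermatid-like cells. It stood at 291 CPM in aged and 313 CPM in young round spermatid-like cells, 176 and 145 CPM in elongating spermatid-like cells, and 30.5 and 48.3 CPM in spermatocyte-like cells. Round over spermatocyte, its level was 9.57-fold in the aged and 6.49-fold in the young library. Along clusters 6, 2, 7, 0, 11, 5, 9, 13, 12 and 8 it stood at 6.09, 15.2, 39.8, 55.5, 114, 264, 377, 382, 271 and 6.46 CPM in aged cells. In young cells it stood at 3.48, 19.5, 53.4, 55.8, 148, 267, 391, 424, 283 and 16.7 CPM. In Leydig-like cells it had 6.86 CPM in aged and 9.85 CPM in young cells, which is 6.91% and 7.47% of its level over the whole library. The protamine and transition protein genes, which Leydig cells should lack, summed to 6.45% and 11.2% of their library level there. The part of germ cell RNA in the Leydig-like level of Hist1h2bp was not tested.

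**Figure D3:**
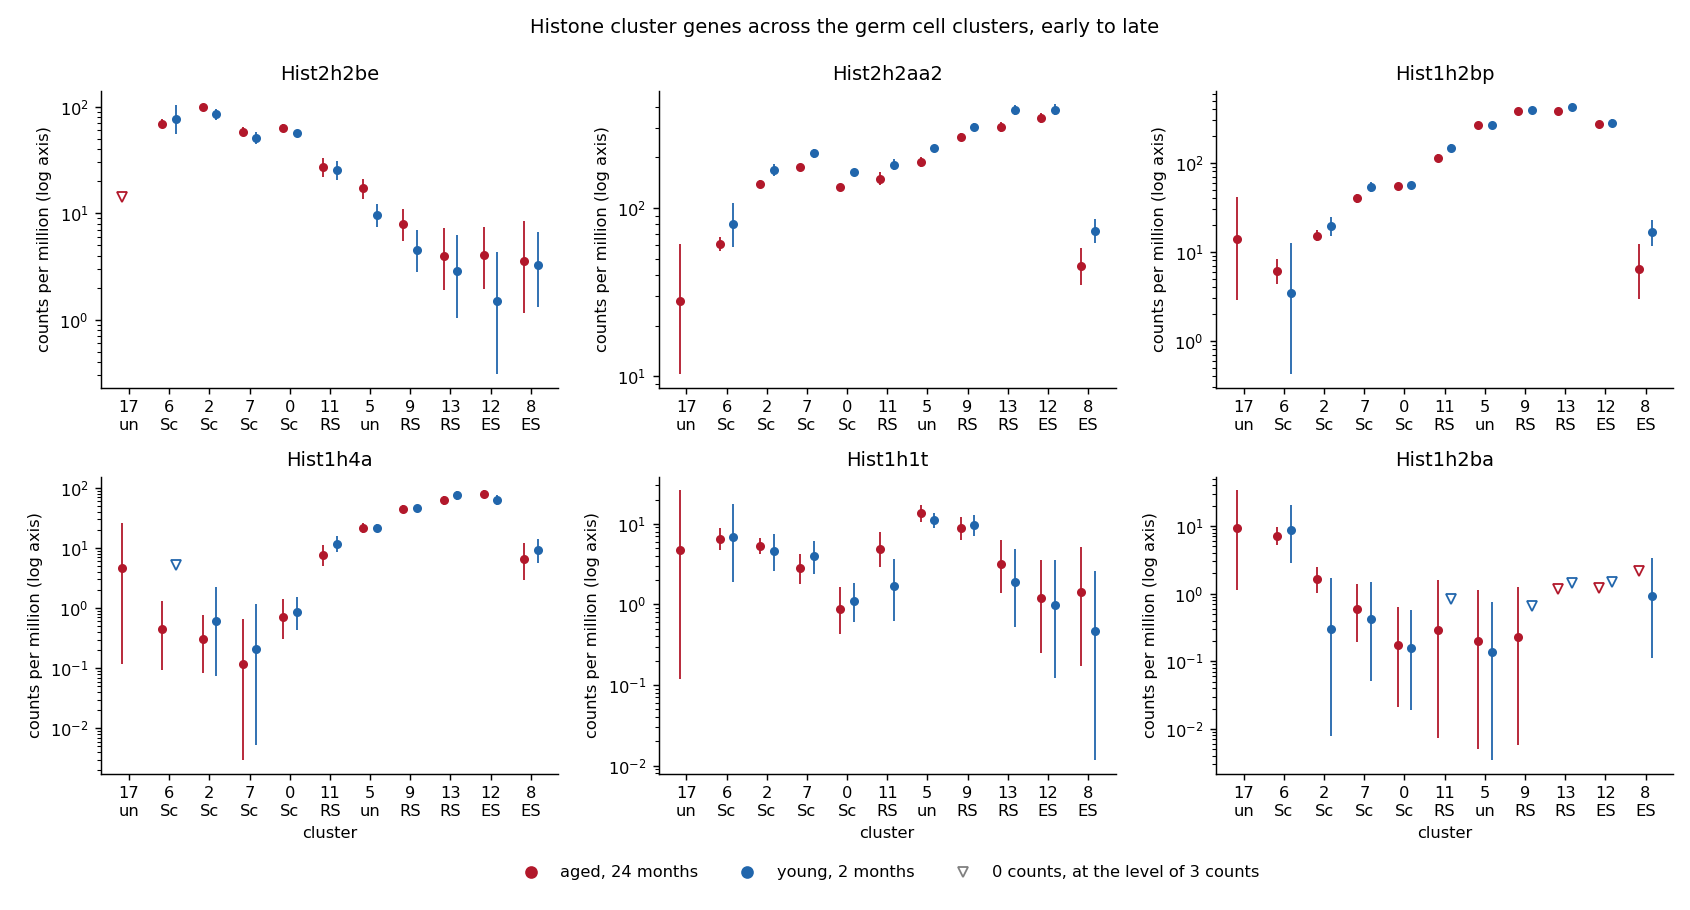
Level in CPM (vertical axes, log scale) of 6 members in germ cell clusters from early meiotic to elongating spermatid-like (horizontal axes, un unnamed, Sc spermatocyte-like, RS round and ES elongating spermatid-like), aged points left of young ones, with exact Poisson 95% intervals and open triangles for 0 counts, drawn at the level of 3 counts. Hist2h2be peaks at cluster 2 with 99.3 CPM in aged and 84.8 CPM in young cells, and Hist1h2bp at cluster 13 with 382 and 424 CPM.

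Hist1h4a (chr13:23760692-23761230, minus strand) and Hist1h3a (chr13:23761853-23762386, minus strand), an H4 and an H3 gene 622 bases apart, were also low in spermatocyte-like and higher in round spermatid-like cells, but unlike Hist1h2bp did not have a lower elongating level in the aged library. Elongating over round spermatid, the level was 1.45-fold (1.22–1.73) in the aged and 0.879-fold (0.722–1.06) in the young library for Hist1h4a, and 1.56-fold (1.17–2.06) and 1.30-fold (0.983–1.71) for Hist1h3a. For Hist1h2bp it was 0.604-fold (0.555–0.656) in the aged and 0.463-fold (0.424–0.505) in the young library. Hist1h4a stood at 36.5 CPM in aged and 39.8 CPM in young round spermatid-like cells, 53.0 and 35.0 CPM in elongating spermatid-like cells, and 0.403 and 0.653 CPM in spermatocyte-like cells. Hist1h3a stood at 13.7 and 15.1 CPM, 21.4 and 19.7 CPM, and 0.126 and 0.280 CPM in the same classes. Round over spermatocyte, Hist1h4a was 90.5-fold in the aged and 61.0-fold in the young library. In clusters 0, 11, 5, 9, 13, 12 and 8 Hist1h4a stood at 0.707, 7.55, 21.5, 44.5, 61.7, 79.1 and 6.46 CPM in aged and 0.860, 11.7, 21.8, 45.8, 74.7, 62.7 and 9.26 CPM in young cells. Hist1h3a was highest in cluster 13, at 28.5 CPM in aged and 30.9 CPM in young cells, and stood at 12.9 and 13.4 CPM in cluster 8.

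Of the testis-specific members, the linker histone gene Hist1h1t (chr13:23695814-23696725, plus strand) had 293 counts in aged and 194 in young cells. Along the order it was high at 2 places and low between them. It stood at 6.54 CPM in aged and 6.95 CPM in young cells of cluster 6, at 0.884 and 1.09 CPM in cluster 0, and at 13.7 and 11.1 CPM in cluster 5. Hist1h2ba (chr13:23933773-23934156, minus strand), the testis-specific H2B known as TH2B, had 84 counts in aged and 13 in young cells. It stood at 7.15 CPM (47 counts) in aged and 8.69 CPM (5 counts) in young cells of cluster 6, and at 1.65 and 0.305 CPM in cluster 2. In cluster 17, 73 aged cells with a spermatogonia-like marker score that were left unnamed for their low depth, Hist1h2ba and the testis-specific H2A gene Hist1h2aa (chr13:23934462-23934851, plus strand) had 2 counts each. The TH2B protein is abundant in meiotic cells, so these few counts describe its polyadenylated RNA and not the protein.

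As whole classes, Leydig-like, macrophage-like and stromal fibroblast-like cells had Hist1h2bc and Hist1h1c as their most counted members. Hist1h2bc (chr13:23684199-23692908, plus strand), an H2B gene, stood at 376 CPM in aged and 305 CPM in young Leydig-like cells, at 305 and 203 CPM in macrophage-like cells, and at 0.882 and 0.840 CPM in spermatocyte-like cells. Hist1h1c (chr13:23738808-23740367, plus strand), which codes for linker histone H1.2, stood at 246 CPM in aged and 132 CPM in young Leydig-like cells, at 185 and 126 CPM in macrophage-like cells, and at 0.176 and 0.373 CPM in spermatocyte-like cells. The aged stromal fibroblast-like cells had 199 CPM of Hist1h2bc and 89.4 CPM of Hist1h1c, and the aged Sertoli-like cells had 263 CPM of Hist1h2bc from 23 counts, 194 CPM of Hist2h2aa2 from 17 and 34.3 CPM of Hist1h1c from 3. Young cells of both classes were too few to set beside them. The protamine and transition protein genes summed to 7577 CPM in the aged Sertoli-like cells, against 4296 CPM over all analysed aged cells. Their Sertoli markers summed to 7931 CPM. The part of germ cell RNA in the Sertoli-like histone levels was not tested. In macrophage-like cells the difference by age went with the clusters. In cluster 14 the level of Hist1h2bc was 305 CPM in aged and 305 CPM in young cells and that of Hist1h1c 185 and 195 CPM, while cluster 16, which held 0 aged and 89 young cells, had 83.9 and 45.9 CPM of these 2 genes. Cluster 14 also had 12091 CPM of summed Leydig markers in aged and 18240 CPM in young cells, against 182 CPM in cluster 16. The part of Leydig RNA in the histone levels of cluster 14 was not tested. Hist3h2a stood at 75.4 CPM in young cells of cluster 14 and at 75.7 CPM in young macrophage-like cells of both clusters together. Its level in cluster 16 was therefore no lower, and lay above that of Hist1h1c there.

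Set between the ages, the largest ratio among members with 50 or more counts in a class was that of Hist1h4h in Leydig-like cells. Hist1h4h (chr13:23531050-23531519, plus strand), an H4 gene, stood at 81.2 CPM (225 counts in 576 cells) in aged and 5.81 CPM (46 counts in 1087 cells) in young Leydig-like cells, a ratio of 13.98 (10.1–19.6). It was higher in aged cells in both Leydig-like clusters, at 48.0 CPM (7 counts) in aged and 5.91 CPM (45 counts) in young cells of cluster 1, and 83.1 CPM (218 counts) and 3.25 CPM (1 count) in cluster 3. A count of Hist1h4h was present in 28.3% (24.7–32.2) of aged and 3.96% (2.88–5.29) of young Leydig-like cells. With each cell thinned to 2000 counts, which left out 52 aged and 0 young shallower cells, it was present in 15.8% of aged and 1.29% of young cells. In round spermatid-like cells the share was 2.99% in aged and 6.98% in young cells, and 0.465% and 0.581% after thinning. The share in aged Leydig-like cells lay above it in both forms. The share in young Leydig-like cells lay below it before thinning and above it after.

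In germ cells Hist1h4h showed no such ratio, and the difference between classes was not tested. It stood at 8.41 CPM in aged and 9.38 CPM in young spermatocyte-like cells, and at 2.111 and 2.33 CPM in round spermatid-like cells. In macrophage-like cluster 14 it stood at 36.9 CPM (19 counts) in aged and 6.86 CPM (4 counts) in young cells, a ratio of 5.38 (1.79–21.8). The macrophage-like class held 48.8% of the Leydig-like level of Leydig markers in aged cells and 29.6% in young cells, and 45.5% and 63.5% of the Leydig-like level of Hist1h4h, and the part of Leydig RNA was not tested. Of its 50-base windows, 45.8% are shared with other H4 genes of the Hist1 locus, so reads could be split among copies. Of those, Hist1h4a stood at 4.33 CPM (12 counts) in aged and 2.53 CPM (20 counts) in young Leydig-like cells, and Hist1h4i at 0.722 and 0.884 CPM.

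**Figure D4:**
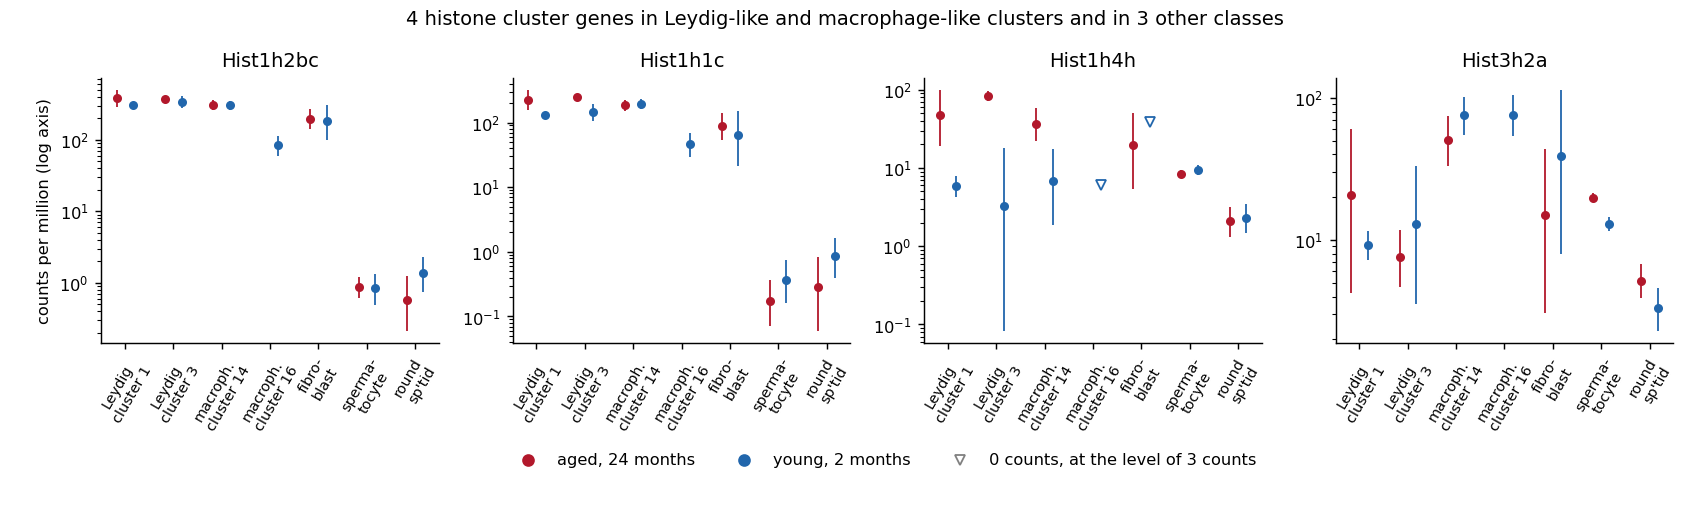
Level in CPM (vertical axes, log scale) of 4 members in Leydig-like clusters 1 and 3, macrophage-like clusters 14 and 16 and 3 other classes, aged points left of young ones, with exact Poisson 95% intervals and open triangles for 0 counts, drawn at the level of 3 counts. Hist1h4h stands at 48.0 CPM in aged and 5.91 CPM in young cells of cluster 1, while Hist1h2bc lies between 303 and 384 CPM in clusters 1, 3 and 14 of both libraries.

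By type, Leydig-like cells had 247 CPM of H1 in aged and 134 CPM in young cells (ratio 1.85, 1.68–2.04), 394 and 329 CPM of H2B (1.20), 67.5 and 99.7 CPM of H2A (0.678), and 87.7 and 11.9 CPM of H4 (7.39, 5.80–9.48). The H1 ratio is that of Hist1h1c, at 1.86 (1.69–2.05), which was 226 CPM in aged and 131 CPM in young cells of cluster 1 and 247 and 146 CPM in cluster 3. The summed members had a ratio of 1.38 (1.31–1.45) in the class, 1.36 in cluster 1 and 1.29 in cluster 3. Of the 12 members with 10 or more counts in Leydig-like cells, 5 were at least 1.5-fold higher in aged cells, against 11.0% of all genes tested, and 3 at least 1.5-fold lower, against 13.6%. The higher ones were Hist1h4h, Hist1h1c, Hist1h4a, Hist1h2be (12 aged and 8 young counts) and Hist1h2ac (7 and 8 counts). The lower ones were Hist2h2aa2, Hist2h2be at 5.42 CPM in aged and 12.8 CPM in young cells (0.425, 0.229–0.734), and Hist1h1e (1 and 12 counts). Hist1h1e and Hist1h2be overlap on the minus strand. Of the 50-base windows of Hist1h1e, 32.0% occur in other genes, Hist1h2be among them. Reads of these 2 genes could be given to either. In cluster 3 alone Hist2h2be stood at 5.72 CPM in aged and 6.50 CPM in young cells (0.8801, 0.205–7.93). In cluster 1 it had 0 of 145960 counts in aged and 99 of 7609176 in young cells. The interval of that ratio runs from 0 to 1.98. Spermatocyte markers summed to 109 CPM in aged and 93.2 CPM in young Leydig-like cells, and the part of germ cell RNA in Hist2h2be there was not tested.

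In spermatocyte-like cells the summed members had a ratio of 0.888 (0.862–0.916), and 17 members had 10 or more counts. Of these, 4 were at least 1.5-fold higher in aged cells, against 17.4% of all genes tested, and 5 at least 1.5-fold lower, against 14.1%. The 4 were Hist1h2ba at 1.91 CPM in aged and 0.466 CPM in young cells (4.10, 2.114–8.90), Hist1h4i (2.70, from 30 and 6 counts), Hist1h1t at 3.73 and 2.43 CPM (1.54, 1.11–2.15), and Hist3h2a. In cluster 6 alone, which held most of the Hist1h2ba counts and was mostly aged, the ratio of Hist1h2ba was 0.823 (0.329–2.65). That ratio rests on 5 young counts. It was 5.42 (0.876–224) in cluster 2, from 22 aged and 1 young count, 1.41 in cluster 7 and 1.13 in cluster 0. Each of these intervals spans 1. For Hist1h4i the ratio was 0.700 (0.213–3.63) in cluster 6, from 24 aged and 3 young counts. It was 0.739 (0.132–7.49) in cluster 2, from 6 and 2 counts. For Hist1h1t the aged level was the higher one in cluster 2 alone, with a ratio of 1.17. The Hist1h1t ratio was 0.941 in cluster 6, 0.712 in cluster 7 and 0.807 in cluster 0, each with an interval that spans 1. Of the 5 lower ones, Hist1h2bp had a ratio of 0.630 (0.579–0.685), which was 0.777 in cluster 2, 0.747 in cluster 7 and 0.994 in cluster 0. The others, Hist1h1c, Hist1h3a, Hist1h4a and Hist1h4c, each had few counts, such as 7 in aged and 8 in young cells for Hist1h1c. The makeup of the spermatocyte-like class differed by age, and its part in these ratios cannot be told apart from level within a stage except in the single clusters given.

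In round spermatid-like cells the summed members had a ratio of 0.906 (0.876–0.938). Of 16 members with 10 or more counts, 2 were at least 1.5-fold higher in aged cells, Hist3h2a (1.57, 1.01–2.49) and Hist1h4i (18 and 9 counts), against 7.72% of all genes tested. Another 2 were at least 1.5-fold lower, Hist1h1c (3 and 9 counts) and Hist1h2bc (6 and 14 counts), against 7.50%. The members that made up the class differed little, with a ratio of 0.853 (0.81–0.90) for Hist2h2aa2, 0.929 for Hist1h2bp and 0.92 (0.79–1.05) for Hist1h4a.

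In elongating spermatid-like cells the summed members had a ratio of 1.13 (1.06–1.21), yet it was 0.950 (0.888–1.02) in cluster 12 and 0.747 in cluster 8, the class's own 2 clusters. It was also under 1, at 0.906, as a mean over cells. With clusters drawn at a resolution of 0.5 it was 0.745. The class then held 313 aged and 135 young cells, close in number to cluster 8 alone, so this is hardly a further check. Cluster 12, the one with the higher Hist2h2aa2, Hist1h2bp and Hist1h4a levels, held 186 aged and 73 young cells and cluster 8 held 313 and 134 cells. In summed counts, on which the class level rests, cluster 12 had 2489975 in aged and 2010967 in young cells. Cluster 8 had 1393711 and 2159767, at median depths of 3716 counts in aged and 13641.5 in young cells. The part of this in the class ratio was not tested. Of 10 members with 10 or more counts, 3 were at least 1.5-fold higher in aged cells, against 13.1% of all genes tested, and 0 at least 1.5-fold lower, against 8.73%. The 3 were Hist1h4a (1.52, 1.22–1.89), Hist2h2be (15 and 10 counts) and Hist1h2ag (9 and 3 counts). The median log2 ratio of the members tested was 0.20 in this class, against 0.10 over all genes tested there. It was 0.04 in spermatocyte-like cells against 0.01 over all genes, −0.12 against 0.01 in round spermatid-like cells, and 0.28 against −0.02 in Leydig-like cells.

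**Figure D5:**
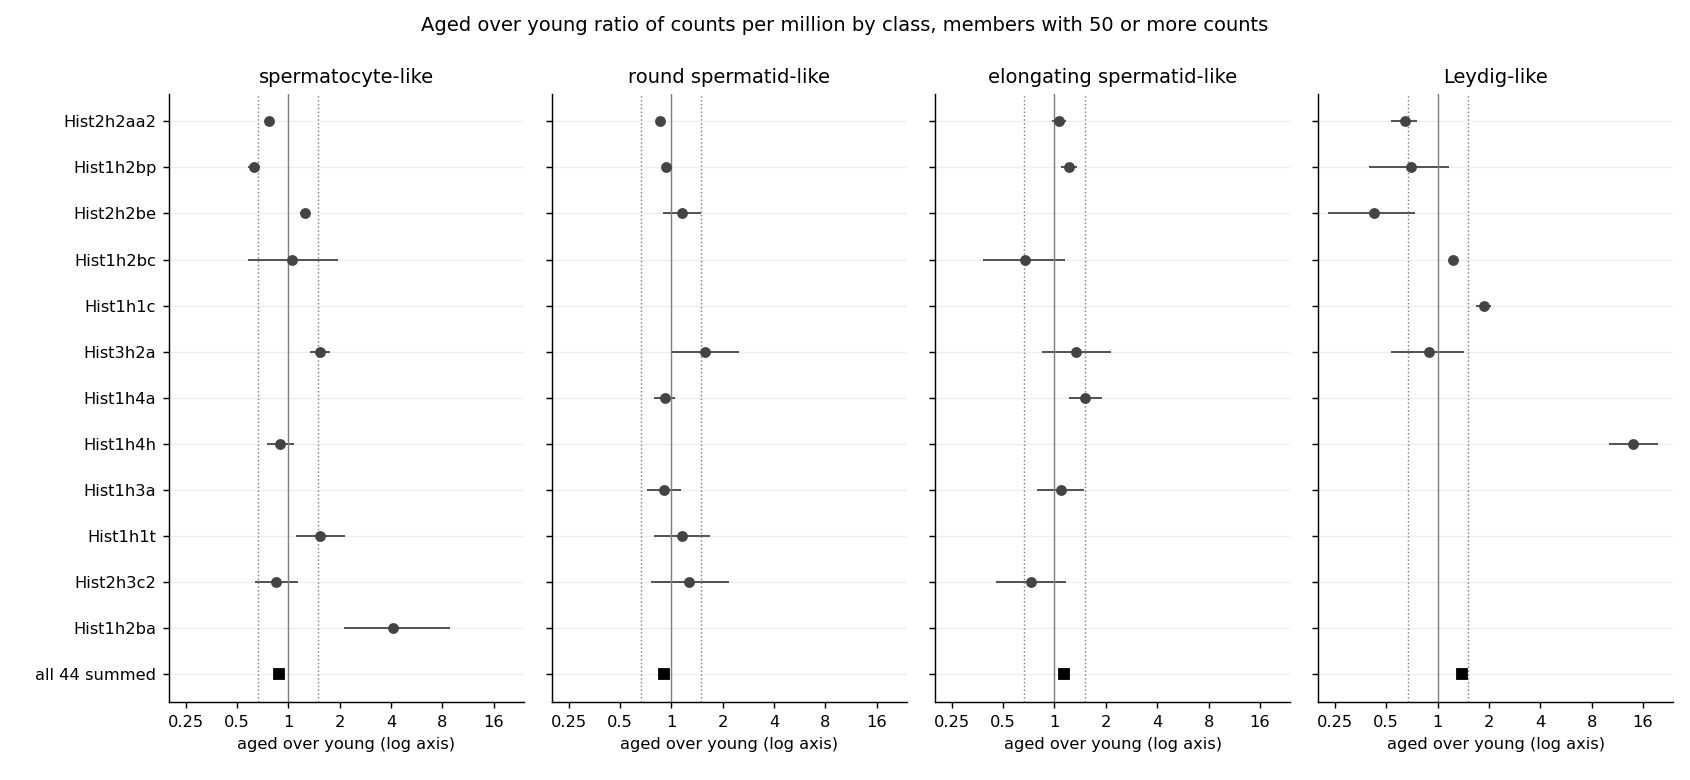
Ratio of the aged to the young level (horizontal axes, log scale) of members with 50 or more counts in each of the 4 classes compared (points) and of all 44 members summed (squares), with exact conditional binomial 95% intervals, a line at equality and dotted lines at 1.5-fold. Hist1h4h in Leydig-like cells stands apart at 13.98, and Hist1h2ba in spermatocyte-like cells is next at 4.10.

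Genes that work with the members were counted by the same rule. Of the replication-independent histone variants, whose mRNAs mostly carry a poly(A) tail, 3 of 13 were at least 1.5-fold higher and 2 of 13 at least 1.5-fold lower in aged Leydig-like cells. Over all genes tested there the shares were 11.0% and 13.6%. In aged spermatocyte-like cells it was 3 and 3 of 13, against 17.4% and 14.1% of all genes tested. In Leydig-like cells H3f3b, a gene for histone H3.3, stood at 991 CPM in aged and 555 CPM in young cells, and H2afz, the gene for H2A.Z, at 554 and 334 CPM. In spermatocyte-like cells H3f3b stood at 747 and 391 CPM and H2afz at 1240 and 962 CPM. Each of these 2 genes alone exceeded the summed members of the spermatocyte-like class. The spermatid linker histone genes Hils1 and H1fnt stood at 1016 and 919 CPM in aged and 1146 and 1104 CPM in young elongating spermatid-like cells.

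Of the genes for histone pre-mRNA processing and the histone locus body, 3 of 17 were at least 1.5-fold higher and 1 of 17 lower in aged spermatocyte-like cells. Over all genes tested there the shares were 17.4% and 14.1%. In aged Leydig-like cells it was 0 and 1 of 16, against 11.0% and 13.6% of all genes tested. Slbp, which binds the stem-loop, stood at 173 CPM in aged and 203 CPM in young spermatocyte-like cells, 129 and 133 CPM in round spermatid-like cells, and 20.9 and 15.8 CPM in Leydig-like cells. Casp8ap2, a histone locus body protein, stood at 5.09 CPM in aged and 1.31 CPM in young spermatocyte-like cells. Of the S phase genes, 3 of 17 were at least 1.5-fold higher and 1 of 17 lower in aged Leydig-like cells, against 11.0% and 13.6% of all genes tested. Pcna, the sliding clamp of DNA replication, stood there at 54.2 CPM in aged and 42.4 CPM in young cells. In aged spermatocyte-like cells 8 of 19 were higher and 2 of 19 lower, against 17.4% and 14.1% of all genes tested there. The listed S phase genes summed to 1018 CPM in aged and 1012 CPM in young spermatocyte-like cells. The gene furthest from equality, Mcm3, a subunit of the replicative helicase, stood at 3.20 and 0.420 CPM. By cluster the S phase sum was 1262 and 1170 CPM in cluster 6, which held 508 aged and 24 young cells. It was 877 and 873 CPM in cluster 2, 959 and 970 CPM in cluster 7, and 1087 and 1056 CPM in cluster 0. The part of class makeup in the spermatocyte-like values of these related genes was not tested. Of the histone chaperones, 3 of 14 were higher and 1 of 14 lower in aged spermatocyte-like cells, against the same 17.4% and 14.1%. Nasp, which carries H1 and H3, stood there at 1728 CPM in aged and 1807 CPM in young cells.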

How the data were processed

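For each library the authors deposited 1 table of raw counts, whole numbers for every gene in every cell. Per the file headers, the aged table came from the BD Rhapsody pipeline 1.7.1 with STAR 2.5.2b. No header came with the young one, and Cell Ranger 2.11 and mm10 are named in the submitters' processing notes. The strand counted, and whether counts are molecules or reads, are not given in the sources used here. The lowest cell total was 186 in the aged and 3215 in the young table. Columns left unused numbered 0, and 12 histone columns found in 1 table only are no members.

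Cells needed 500 counts, 200 genes and no more than 25% of counts from mitochondrially encoded genes, which removed 311 aged and 0 young cells for low counts or genes and 700 aged and 1 young cell for mitochondrial counts. Scrublet then called 121 aged and 38 young doublets. Each cell was scaled to 10000 counts and logged, and 2000 variable genes, without the members, and 40 principal components went into a graph of 15 neighbours that was clustered without batch correction (scanpy 1.11.5, leidenalg 0.10.2, resolution 1, seed 1, Python 3.11.15). Clusters were named from marker lists with a score of at least 0.3, a gap of 0.15 to the next class and 3 markers, limits set after the clusters had been seen. Classes named by other limits would hold other cells.

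Counts were summed per class and library. Ratios needed 10 or more counts over both libraries, log2 ratios had 0.5 added to each count, and 1.5-fold was counted by size alone. Intervals (scipy 1.17.1) were tested on simulated data with these depths. Classes with 50 or more cells in each library were compared. Full values are given for the 12 members with the most counts and for the 2 highest and 2 lowest ratios per class among members with 50 or more counts, and others are named where a count of 5 or fewer called for it. The members and lists were chosen with earlier results of these data known. Values of single clusters, cluster 5, the count over 9 germ cell clusters, levels over the library and overlapping genes were added after values had been seen. Coordinates and transcripts are from GENCODE M21 for GRCm38 and promoters from RefSeq for GRCm38.p6. Alternatives to the cell filter, doublets, clustering, naming, depth, scaling, averaging, free RNA, minimum and fold were run 1 at a time. Proteins were not analysed here.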

Additional observations from a re-analysis of the deposited data

Results flagged for a closer look

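The ratio of the summed members was 1.38 in Leydig-like and 0.888 in spermatocyte-like cells, with intervals on either side of 1. The 2 sums rest mostly on different members. Hist1h2bc gave 46.9% of the member counts in aged and 52.6% in young Leydig-like cells. In spermatocyte-like cells Hist2h2aa2 gave 47.2% in aged and 54.6% in young cells. The difference was not tested.

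Hist1h2bp had a ratio of 1.21 in elongating spermatid-like and 0.630 in spermatocyte-like cells. Within the elongating spermatid-like clusters it was 0.957 in cluster 12 and 0.387 (0.164–0.820) in cluster 8, and within the spermatocyte-like clusters it was 1.75 in cluster 6 (40 aged and 2 young counts), 0.777 in cluster 2, 0.747 (0.633–0.882) in cluster 7 and 0.994 in cluster 0. The difference was not tested.

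Hist2h2be had a ratio of 1.25 in spermatocyte-like and 0.425 in Leydig-like cells, the second from 15 aged and 101 young counts. In Leydig-like cluster 3, which held 538 of the 576 aged cells, it was 0.8801 (0.205–7.93), and most young Leydig-like cells lay in cluster 1. The difference was not tested.

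Of the 12 histone columns present in 1 table only, Hist1h2ae had the most, with 4 counts in the young library, above the 3 counts that a count of 0 allows.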

How the results depend on the processing

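The ratio of the summed members kept its direction under all alternatives run in spermatocyte-like, round spermatid-like and Leydig-like cells, and beyond counting error it moved to 0.916 and 0.933 in spermatocyte-like clusters 0 and 2 alone, to 1.29 in Leydig-like cluster 3 alone, and in round spermatid-like cells to 0.960 with classes from each cell's own markers, 0.939 with the lowest young cell total as minimum, 0.949 with doublets kept and 0.873 as a mean over cells. In elongating spermatid-like cells it was 1.01 with doublets kept, 1.02 at resolution 2 and 1.03 with cells thinned to 2000 counts. It was 1.06 with the median ratio of all genes set to 1. It turned to 0.906 as a mean over cells and to 0.745 at resolution 0.5. At that resolution the class held 313 aged and 135 young cells, close in number to cluster 8 alone. The cause of these changes was not tested. The number of members past 1.5-fold, higher and lower in aged cells, depends most on the count minimum: with 1 count as minimum it was 12 and 16 in spermatocyte-like, 10 and 12 in round spermatid-like, 10 and 13 in elongating spermatid-like and 8 and 10 in Leydig-like cells, which follows from members with few counts being tested. In spermatocyte-like cells the number higher was 2 with own markers, 2 at 2-fold, 0 in cluster 0, 1 in cluster 2 and 0 in cluster 7, and the number lower was 2 with own markers, 3 as a mean over cells, 2 thinned, 1 with a minimum of 50, 2 at 2-fold, 1 with the 95% interval beyond 1, 2 in cluster 0, 2 in cluster 2 and 0 in cluster 7. In round spermatid-like cells the number higher was 1 thinned, 1 with a minimum of 50, 0 at 2-fold, 1 with the interval beyond 1 and 1 with cluster 5 counted in, and the number lower was 4 with the lowest young total, 1 at resolution 0.5, 1 thinned, 0 with a minimum of 50, 0 with the interval beyond 1 and 5 with cluster 5. In elongating spermatid-like cells the number higher was 0 thinned and 1 under each of 10% mitochondrial counts, doublets kept, both other resolutions, the median ratio set to 1, a minimum of 50, 2-fold and the interval beyond 1, and the number lower was 2 with the lowest young total and at resolution 0.5, and 1 with own markers, 10% mitochondrial counts, members among variable genes, the median ratio set to 1 and thinning. In Leydig-like cells the number higher was 3 thinned, at 2-fold and with the interval beyond 1, 2 with a minimum of 50 and 2 in cluster 3, and the number lower was 1 in cluster 1. The log2 ratio turned for Hist1h1t in spermatocyte-like clusters 0 (−0.29) and 7 (−0.50), for Hist3h2a in cluster 7 (−0.035) and in thinned round spermatid-like cells (−1.44), and for Hist1h4a in elongating spermatid-like cells at resolution 0.5 (−0.46). Of 353 log2 ratios of members under an alternative, 290 stayed within the counting error of the first value, 58 moved and these 5 turned. The Hist1h2bp level in round spermatid-like cells was 346 CPM in aged and 360 CPM in young cells with the lowest young total, 360 and 378 CPM with 10% mitochondrial counts, and 272 CPM in thinned aged cells. The Hist2h2aa2 level in elongating spermatid-like cells was 208 CPM in aged and 194 CPM in young cells with the lowest young total, and 165 and 162 CPM thinned. Members measured numbered 23 in each library at 10 or more counts. No paired analysis was possible because there is 1 library per age and no test was made. Depth limits the members with few counts: 14 of the 44 had fewer than 10 counts in all.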
